A study of Mus musculus with 10 samples.

Results

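Potassium channel genes were followed across the molecular clusters of cells picked from the mouse paraventricular hypothalamus (PVH). The members were taken by symbol, as a pore-forming or accessory subunit named Kcn followed by letters and a number, with at least 50 transcript counts (unique molecular identifiers, UMIs) summed over the retained cells. Of 92 matching symbols among the 48397 genes of the table, 64 were members, 21 had 1 to 49 UMIs and 7 had none. Just inside the limit stood Kcnk7 with 52 UMIs and Kcng4 with 57, and just outside it Kcng1 and Kcnh5 with 46 each. Antisense and overlapping symbols such as Kcnq1ot1 and Kcnd3os were not members, and reads of overlapping genes could not be assigned here beyond the deposited counts.

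Potassium channels carry outward or inwardly rectifying currents that set the resting potential, repolarize action potentials and time repetitive firing. Voltage-gated pores (Kv, the gene stems Kcna to Kcnd, Kcnq and Kcnh) assemble as tetramers, often with modulatory alpha subunits (Kcnf, Kcng, Kcns, Kcnv), beta subunits (Kcnab) or calcium-binding KChIP proteins (Kcnip), whereas calcium-activated (Kcnma, Kcnn), inward rectifier (Kcnj) and tandem-pore leak channels (Kcnk) respond to calcium, G proteins, ATP or pH. In the PVH, magnocellular neurons release oxytocin or vasopressin from the pituitary and fire in bursts or phasic trains, and parvocellular neurons project to the median eminence, brainstem and other targets; their A-type and calcium-activated potassium currents are a classical way to tell these neurons apart in recordings.

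All samples were one condition: male offspring (more than 7 weeks old) of Agrp-IRES-Cre mice crossed with Ai9, a Cre-dependent tdTomato reporter, whose labelled AGRP axons marked the PVH boundary, with cells picked by hand from slices held in blockers of neuronal activity. The 706 retained cells came from 10 plates (4 with the prefix Q, 2 with AL and 4 with JM), which were used as replicates. The main fit had a term for each plate and took several cluster sums from the same plate. Its p-values therefore measure the spread of sums left after plate-wide differences. The sources do not tie plates to mice, so no p-value measures a spread between mice. Of the 15 deposited clusters, clusters 1 to 4 are called magnocellular by the study and clusters 5, 6 and 11 lie outside the PVH. This left 12 PVH clusters with 664 cells, here grouped as magnocellular (332 cells) and parvocellular (332 cells). Parvocellular is here only a short name for the PVH clusters other than 1 to 4, among them cluster 12, which expressed Oxt. The clusters were drawn from these same counts.

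The highest neuropeptide levels matched these labels, though detection was wider. Oxt was found in 324 of 332 parvocellular cells and 40 of 42 cells outside the PVH, and Avp in 314 and 42 of these cells. Oxt reached 66959 ± 17304 CPM (UMIs scaled to the same total in every sum of cells; SD, n = 10 plates) in cluster 1, and Avp averaged 69364, 46024 and 50763 CPM in clusters 2, 3 and 4. Sst led clusters 7 and 8 (14291 and 9691 CPM), Trh was high in clusters 9 and 15 (2628 and 1512 CPM), Crh in cluster 10 (1743 CPM), Gad2 in cluster 13 (411 CPM) and Penk in cluster 14 (1274 CPM). Agrp, the gene whose promoter drives Cre, had 39 UMIs in 3 magnocellular cells and 71 UMIs in 9 parvocellular cells. Cells held 50646 to 1078101 UMIs, with medians of 235270 on Q plates and 85167 on AL and JM plates, and of 174873 in magnocellular and 108657 in parvocellular cells. Q plates supplied 48 of 53 cells of cluster 2 and 40 of 42 cells of cluster 8 but none of clusters 4, 12 and 13 and 1 cell of cluster 3, so plate prefix and cluster cannot be told apart for these clusters. Summed oligodendrocyte markers stood at medians of 40.1 CPM in magnocellular and 36.6 CPM in parvocellular sums, and summed astrocyte markers at 0.855 and 0.231 CPM. Most of the oligodendrocyte sum was Mbp, with 2092 UMIs in magnocellular and 1542 in parvocellular cells. Olig2 had 0 and 13 UMIs, Opalin 1 and 63, and Mog 0 in both. The part of glial RNA in the results was not tested.

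Potassium channel transcripts were a small share of the total in all PVH clusters. Summed over members, they made up 1186 ± 370 CPM in cluster 7 (n = 8 plates), the lowest mean, and 1870 ± 139 CPM in cluster 10 (n = 7), the highest, though without the 7 neuropeptide genes in the total the mean of cluster 3 (1908 ± 173 CPM, n = 5) lay above that of cluster 10 (1879 ± 140 CPM). A median of 10 to 16 members was detected per cell. Kcnip1, a KChIP that binds Kv4 channels, was found in 80.7% of PVH cells (95% exact interval 77.5% to 83.7%, counting error only). It was 1 of 2 members detected in over 40% of the cells of every PVH cluster, whereas 30 of the 64 members passed that share in at least 1 cluster. Kcna3 and Kcnk13 stayed under 5% in every cluster.

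Which members differed among clusters was asked on counts summed per plate and cluster, in an edgeR quasi-likelihood fit that also had a term for each plate. A low-count filter left 57 members, and 27 of them (47.4%) passed an adjusted p of 0.05, beside 21% of the 13082 genes tested. Every modulatory Kv subunit tested (5 of 5) differed, as did 4 of 5 Kcnh genes, 3 of 4 KChIPs, 2 of 3 beta subunits, 2 of 3 Kv4 pores, 2 of 4 Kv3 pores and 3 of 8 inward rectifiers. The Kv2 pore Kcnb2 and the sodium-activated and related Kcnt1, Kcnt2 and Kcnu1 did not pass, and 1 of 5 tandem-pore members did. The fitted levels of Kcnh8 varied most among those that passed (SD 3.92 on the log2 scale over 12 clusters), followed by Kcnv1 (3.56), Kcnj5 (3.54), Kcns3 (3.37), Kcnk12 (3.28), Kcnj3 (3.28), Kcnmb4 (3.05) and Kcnj12 (2.94). These were genes with few or no UMIs in some clusters, where a fitted log2 value depends on the prior count.

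The plot of all members by cluster shows both kinds of gene. Kcnj9, a G protein-gated inward rectifier subunit, and Kcnk3, an acid-sensitive leak channel, were 2 of the 3 members whose highest and lowest cluster means lay within 4-fold of each other. Kcnj9 ranged from 21.8 CPM in cluster 14 to 85.1 CPM in cluster 8. At the other end, 36 members had no UMI in at least 1 PVH cluster, and no member had a cluster in which its lowest plate lay above every plate of all other clusters. Neither share was computed over all genes. Cluster 14 held the highest mean of 9 members and clusters 9 and 10 of 8 each, while cluster 2 held that of 1.

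**Figure D1:**
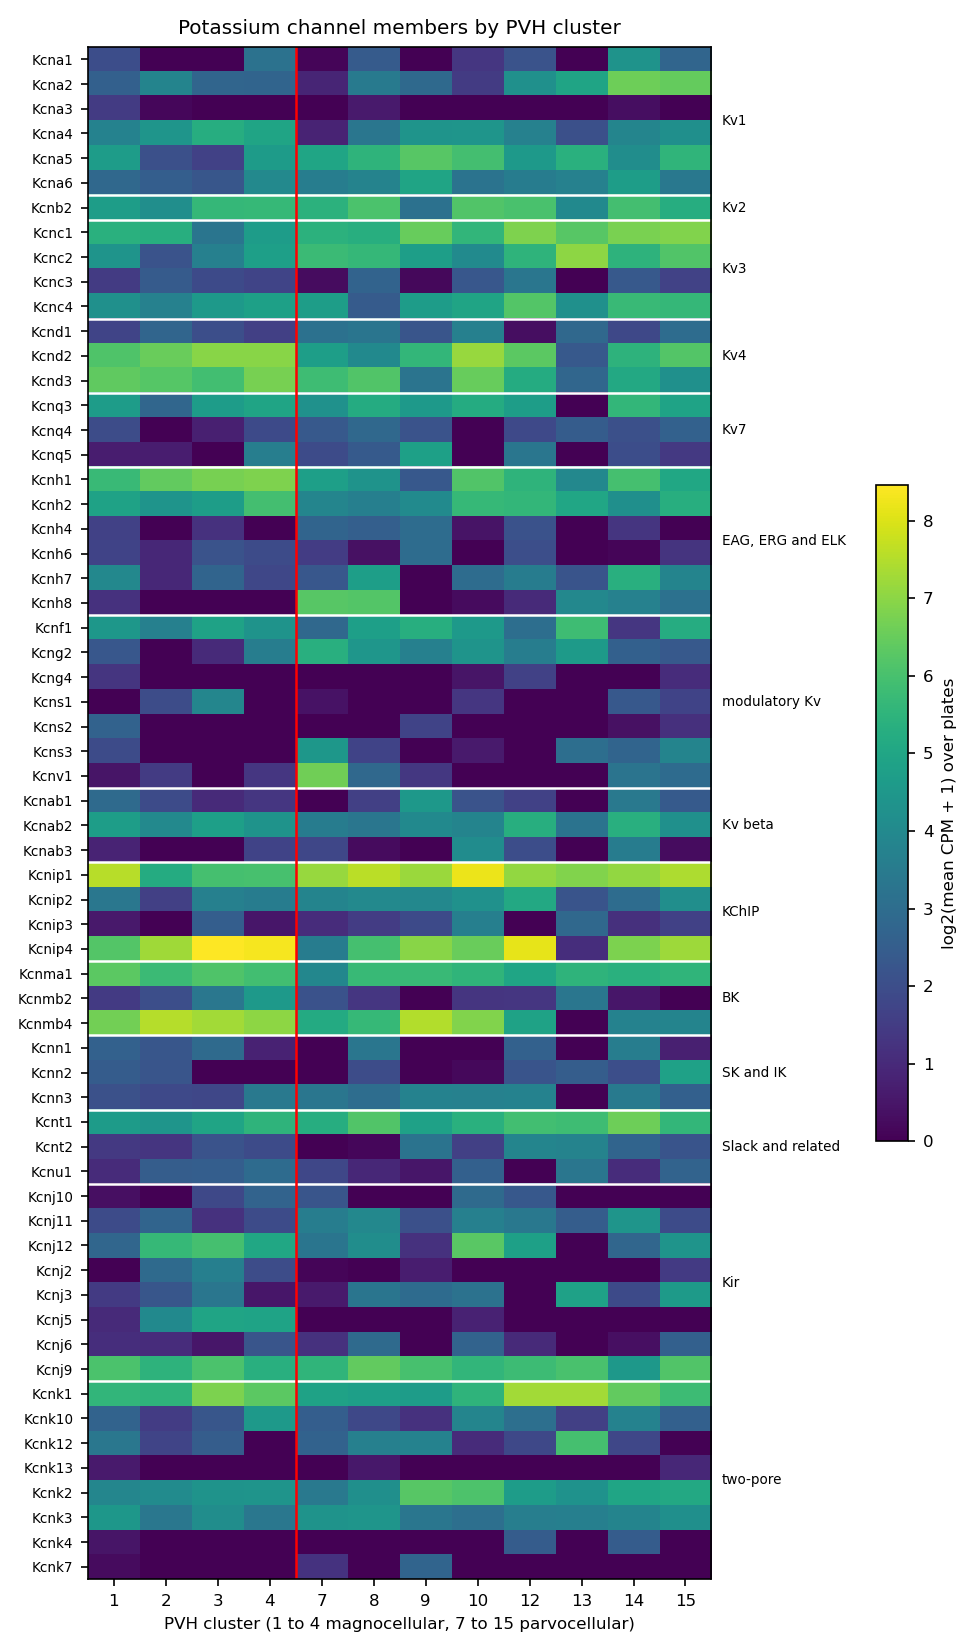
Mean level of 62 members (rows, grouped by family) in each of the 12 PVH clusters (columns), as log2(mean CPM + 1) over plates, with the red line between magnocellular clusters 1 to 4 and parvocellular clusters 7 to 15. Kcnip1 is bright in every column, whereas Kcnj5 is confined to the left block apart from 1 UMI and Kcnv1 is brightest in cluster 7.

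The sequences upstream of 5 members whose levels set clusters apart are shown for reference. They are the 200 bases before the first listed transcription start (RefSeq, GRCm38.p6; the files used GRCm38.p5), read 5′ to 3′ on the gene's strand, and capitals mark a GC box (GGGCGG on either strand). Kcnj5 lies at chr9:32344345-32344544 (minus strand), Kcnj12 at chr11:61065604-61065803 (plus), Kcnmb4 at chr10:116473524-116473723 (minus), Kcnh8 at chr17:52602509-52602708 (plus) and Kcna2 at chr3:107101367-107101566 (plus).
Kcnj5: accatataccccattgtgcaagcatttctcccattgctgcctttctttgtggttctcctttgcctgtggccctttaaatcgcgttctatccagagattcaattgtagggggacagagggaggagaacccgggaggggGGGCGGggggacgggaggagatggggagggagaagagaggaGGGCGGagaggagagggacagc
Kcnj12: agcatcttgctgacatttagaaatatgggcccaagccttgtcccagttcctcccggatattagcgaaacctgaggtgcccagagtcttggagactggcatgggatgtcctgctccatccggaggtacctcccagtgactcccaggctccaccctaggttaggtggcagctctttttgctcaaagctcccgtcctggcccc
Kcnmb4: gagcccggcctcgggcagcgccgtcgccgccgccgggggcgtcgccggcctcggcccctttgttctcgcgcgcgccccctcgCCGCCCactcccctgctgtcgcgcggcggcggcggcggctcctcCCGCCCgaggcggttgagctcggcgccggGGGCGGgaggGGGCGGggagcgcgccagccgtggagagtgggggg
Kcnh8: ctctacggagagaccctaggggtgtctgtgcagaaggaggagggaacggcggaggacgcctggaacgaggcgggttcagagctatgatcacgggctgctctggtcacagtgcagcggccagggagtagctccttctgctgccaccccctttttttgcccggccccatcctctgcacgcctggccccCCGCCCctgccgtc
Kcna2: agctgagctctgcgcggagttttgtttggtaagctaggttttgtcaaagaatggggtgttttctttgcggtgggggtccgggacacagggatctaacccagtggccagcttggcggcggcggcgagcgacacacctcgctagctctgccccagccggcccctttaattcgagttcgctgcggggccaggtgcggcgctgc
Kcnmb4 held 4 GC boxes, Kcnj5 held 2 and Kcnh8 held 1, while these letters were not in the Kcnj12 and Kcna2 windows. Of 47 members with an entry, 26 (55.3%) held a GC box, beside 31.3% of 27025 genes, and the median GC content was 62% beside 53%. ACGTG, a core bound by SIM1 and other basic helix-loop-helix factors, was in 5 member windows (10.6%, beside 13.95% of all). TATAAA was in 1 (2.13%, beside 10.6%), ATGCAAAT in 1 (2.13%, beside 1.39%) and TGACGTCA in 0 of the 47, beside 1.55% of all genes. These matches are letters in a window and say nothing of binding.

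Magnocellular and parvocellular clusters were compared first with each cluster given equal weight. Of the 57 members, 7 were higher in magnocellular clusters (12.3%, beside 7.9% of all genes) and 5 were lower (8.77%, beside 2.68%), with a median log2 change of 0.19 over members and 0.15 over all genes. This form averages log levels, and a gene with no UMI in a cluster has a fitted level there that depends on the prior count. A member with empty clusters in both groups, such as Kcnv1 or Kcnk12, can hardly be called in this form. Such members still count among the 57. In an alternative chosen after seeing the data, the cells of all magnocellular or all parvocellular clusters were pooled within each plate. There, 5 of 45 members were higher (beside 7.53% of genes) and 10 were lower (beside 6.51%), and 4 of the higher and 3 of the lower members were called in both forms.

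A BK channel subunit was among the higher members. Kcnmb4, the neuronal beta subunit that slows BK gating, had 62.5, 146 and 170 CPM (lowest, median and highest of 10 plates) in magnocellular and 14.2, 45.1 and 84.5 CPM in parvocellular sums, and was higher in magnocellular sums on 10 of 10 plates although the ranges overlapped. Its log2 change was 3.07 ± 0.34 (SE; edgeR adjusted p = 2.84e-11) and 1.60 ± 0.19 when pooled (edgeR adjusted p = 2.07e-05). Cluster 13 had no UMI of it, and without that cluster, an alternative chosen after seeing the data, the change with equal weights was 1.98 (edgeR adjusted p = 4.56e-08). Kcnma1, the BK pore, had 65.8 ± 24.4 CPM in magnocellular and 40.4 ± 13.7 CPM in parvocellular sums (SD, n = 10), and was called when pooled (log2 change 0.80, edgeR adjusted p = 0.000973) but not with equal weights (0.74, edgeR adjusted p = 0.218). Kcnmb4 was found in 91.9% of magnocellular cells (88.4% to 94.6%, exact interval) and 44.9% of parvocellular cells (39.4% to 50.4%), and in 89.5% and 41.6% of the 314 and 286 cells left when each cell was thinned to 63046 UMIs and shallower cells were left out.

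Both abundant Kv4 pores, which carry A-type current, were higher on average in magnocellular clusters. Kcnd2 had 94.8 ± 26.0 CPM in magnocellular and 58.8 ± 18.3 CPM in parvocellular sums (SD, n = 10) and was higher on 9 of 10 plates. Its log2 change was 1.65 ± 0.35 (SE, edgeR adjusted p = 0.00022). Kcnd3 had 82.9 ± 22.9 and 41.8 ± 14.2 CPM and was higher on 10 of 10 plates, with a log2 change of 1.68 ± 0.33 (edgeR adjusted p = 8.17e-05). Both were called when pooled, at log2 changes of 0.64 and 1.05. The parvocellular clusters were unlike each other. Cluster 10 had the highest cluster mean of Kcnd2 (141 CPM, ahead of 124 CPM in cluster 3). For Kcnd3 it came next (90.3 CPM) after cluster 4 (106 CPM). The lowest cluster means of Kcnd2 and Kcnd3 were in cluster 13 (4.1 and 5.9 CPM). Kcnd1 was scarce, at 3.2 and 5.4 CPM on average. Of the auxiliary subunits of Kv4 outside the members, Dpp10 (2.08) and Dpp6 (0.72) were also higher (edgeR adjusted p = 0.000204 and 0.000181).

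Kcnh1, an ether-à-go-go pore, was higher in magnocellular sums on 10 of 10 plates, and the plate ranges of the groups did not overlap. The share of all genes that separate so was not computed. Magnocellular sums lay between 70.6 and 102 CPM (median 76.8) and parvocellular sums between 14.9 and 58.4 CPM (median 36.1). The log2 change was 2.03 ± 0.36 (edgeR adjusted p = 1.44e-05) and 1.00 ± 0.18 when pooled (edgeR adjusted p = 0.000806). Of the other Kcnh genes, Kcnh8 went the other way, with 46 UMIs in magnocellular and 1301 in parvocellular sums. It had no UMI in 3 magnocellular clusters and 1 parvocellular cluster. With empty clusters in both groups, the form with equal weights cannot decide its direction, and Kcnh8 was not called there. It was lower in magnocellular cells when pooled (edgeR adjusted p = 0.00587).

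Members lower in magnocellular clusters included the Kv3 pores, which support fast repolarization. Kcnc1 had 19.4, 27.6 and 48.7 CPM (lowest, median and highest plate) in magnocellular and 24.6, 81.7 and 142 CPM in parvocellular sums, lower on 9 of 10 plates. Its log2 change was -1.55 ± 0.34 (edgeR adjusted p = 0.000558). Kcnc2 had 15.4 ± 13.4 and 48.8 ± 13.4 CPM (SD, n = 10) and a log2 change of -2.26 ± 0.55 (edgeR adjusted p = 0.00194), and both were lower on 10 of 10 plates when pooled. Kcng2, a modulatory subunit, had 3.3 ± 6.0 and 16.4 ± 7.4 CPM, with a log2 change of -3.43 ± 0.88 (edgeR adjusted p = 0.00347). Kcna5, a Kv1 pore, was lower with equal weights (-2.04 ± 0.58, edgeR adjusted p = 0.0101) and not called when pooled (edgeR adjusted p = 0.124).

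Pooling added 7 lower members and ended 4 calls. Kcna2, an axonal Kv1 pore, had 7.0 CPM in magnocellular and 44.1 CPM in parvocellular pools (edgeR adjusted p = 0.00617), and Kcnj11, the pore of ATP-sensitive channels, 2.9 and 10.9 CPM (edgeR adjusted p = 0.0318). Kcnt1, a sodium-activated pore, Kcnk2, a mechanosensitive leak channel, and Kcnb2, a delayed rectifier, were lower by 1.09, 0.98 and 0.63 on the log2 scale. Kcnv1, a silent subunit, was lower at 49 against 722 UMIs, as was Kcnh8. Kcnip4, Kcnip1, Kcnj12 and Kcna5 lost their calls and Kcnj5 had too few counts to be tested, with the first 4 at pooled log2 changes of 0.30, -0.12, 0.01 and -0.64. For Kcnip4, Kcnip1 and Kcnj12, levels in the oxytocin cluster, which holds 221 of the 332 magnocellular cells, were unlike those in the vasopressin clusters.

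**Figure D2:**
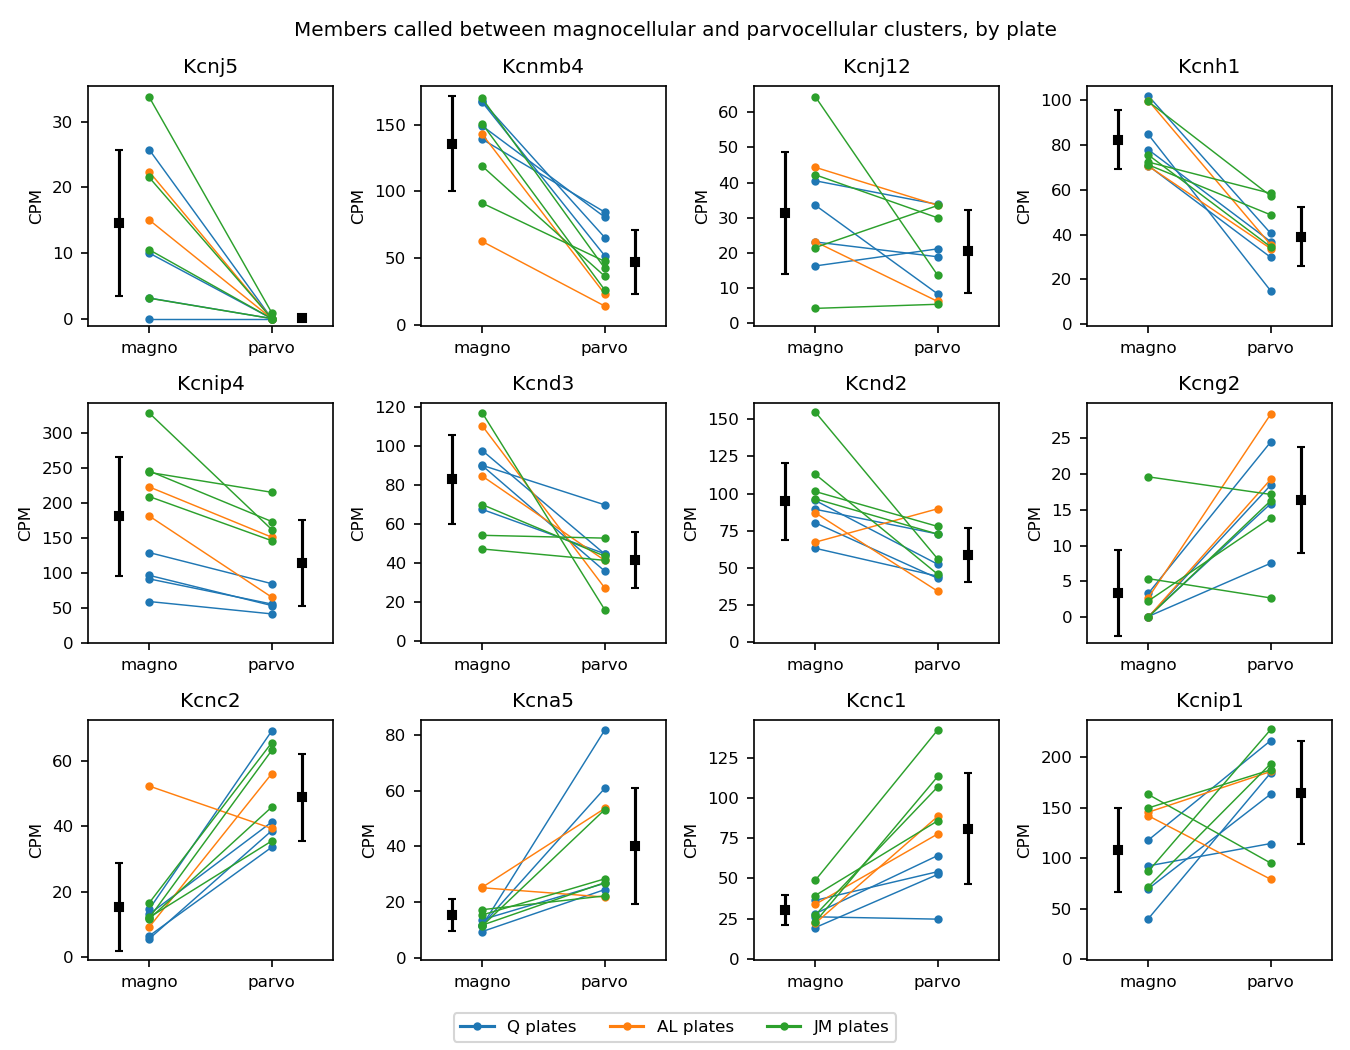
Level in CPM of the 12 members called between magnocellular and parvocellular clusters with clusters weighted equally, for each of 10 plates (points joined within a plate and coloured by plate prefix), with the mean and SD as black squares and bars. Kcnh1, Kcnmb4, Kcnd3 and Kcnip4 fall from left to right on 10 of 10 plates, and in Kcnc2 1 AL plate runs against the other 9.

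**Figure D3:**
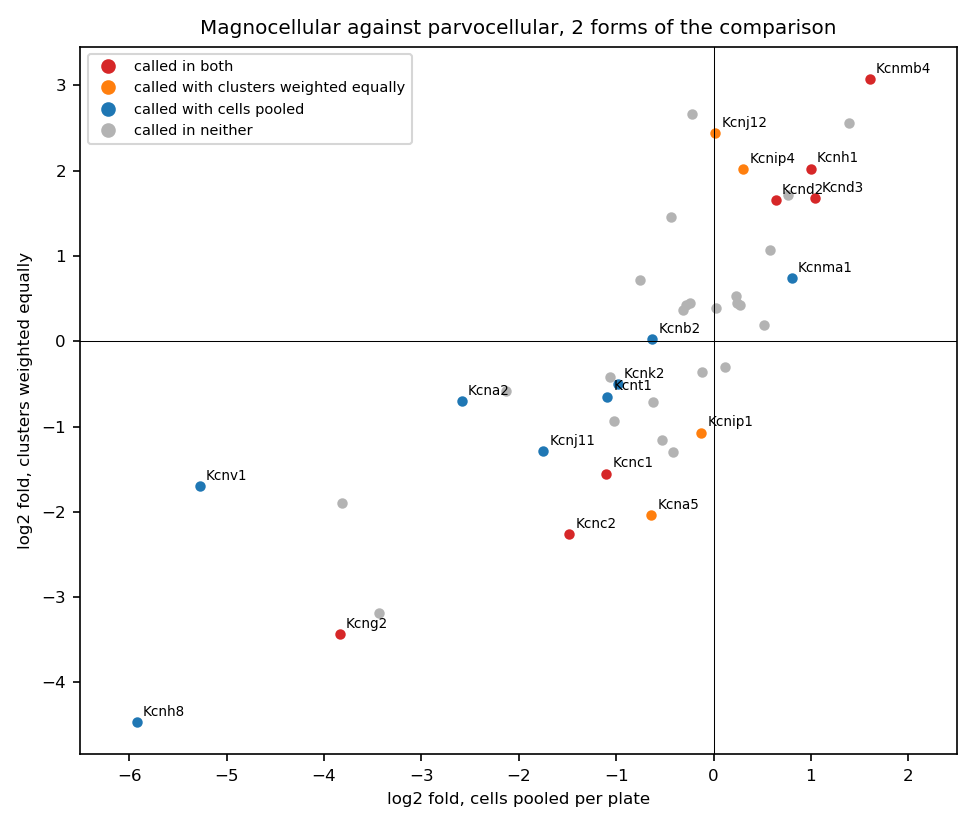
Log2 change between magnocellular and parvocellular cells of members tested in both forms, with cells pooled per plate on the horizontal axis and clusters weighted equally on the vertical axis. Kcnmb4, Kcnh1, Kcnd2, Kcnd3, Kcnc1, Kcnc2 and Kcng2 (red) passed in both, and Kcnj12, Kcnip4, Kcnip1 and Kcna5 (orange) passed with equal weights alone.

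Within plate prefixes the directions of these 12 members held, with fewer plates. On AL and JM plates alone 8 members were called (beside 8.35% of genes in either direction), 7 of them higher, and on Q plates alone 4 (beside 4.18%), of which 3 were higher. Kcnmb4 was 3.45 higher on the log2 scale on AL and JM plates and 2.00 on Q plates, Kcnh1 1.23 and 2.38, and Kcnd3 1.57 and 2.15, each called in both, where the Q plates hold no cells of clusters 4, 12 and 13. Kcnj12, Kcnip1, Kcna5 and Kcnc2 were called within neither.

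The vasopressin clusters carried an inward rectifier that the parvocellular clusters all but lacked. Kcnj5, a G protein-gated subunit, had 17.1, 19.5, 28.8, 42.0 and 43.0 CPM on the 5 plates of cluster 3. In cluster 4 it had 0, 6.2, 25.5, 48.3 and 66.9 CPM, and in cluster 2 it had 0, 0, 3.8, 19.8 and 51.5 CPM. In the oxytocin cluster 1 it was at 0 on 6 of 10 plates and reached 5.6 CPM. Over all parvocellular sums there was 1 UMI, in cluster 10, beside 373 in magnocellular sums. Outside the PVH it averaged 12.04 CPM in cluster 6 (n = 5 plates) and 43.4 CPM in cluster 11 (n = 2). It was detected in 33.3% of cluster 3 cells, 31.8% of cluster 4 cells, 13.2% of cluster 2 cells and 2.7% of cluster 1 cells. The fitted log2 change between magnocellular and parvocellular clusters was 6.51 ± 0.88 (edgeR adjusted p = 2.13e-07), a value that depends on the prior count since 7 parvocellular clusters had no UMI. Its possible partner subunit Kcnj3 followed another order, highest in clusters 13 and 15 (27.8 and 23.6 CPM) and at 0 in cluster 12.

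Cluster 1, the oxytocin cluster, was set against clusters 2 to 4 in the same fit. Of 57 members, 5 were higher (beside 5.13% of all genes) and 2 were lower (beside 0.91%). Pooled per plate, 2 of 30 were higher (beside 4.85%) and 4 were lower (beside 3.1%), and Kcnip1 and Kcnj12 were called in both.

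Kcnip1 and Kcnip4, both KChIPs that bind Kv4 pores, had opposite differences between these neurons. Kcnip1 in cluster 1 had 57.9, 202 and 287 CPM (lowest, median and highest of 10 plates). It had 9.4, 22.3, 36.1, 50.0 and 61.4 CPM on the plates of cluster 2, means of 61.4 and 62.9 CPM in clusters 3 and 4, and a log2 difference of 2.05 ± 0.30 (edgeR adjusted p = 5.99e-07). Pooled per plate it was higher in cluster 1 on 10 of 10 plates. Kcnip4 ran the other way, with 29.0, 74.4 and 135 CPM in cluster 1 and, in cluster 3, 257, 300, 339, 355 and 508 CPM. The pooled log2 difference of Kcnip4 was -1.73 ± 0.17, lower in cluster 1 on 10 of 10 plates (edgeR adjusted p = 1.63e-06), while with equal weights it was -1.65 ± 0.57 (edgeR adjusted p = 0.0722). Within cluster 1, both genes were lower on all 4 Q plates than on all 6 AL and JM plates. Kcnip4 lay between 29.0 and 50.4 CPM on Q plates and 70.0 and 135 CPM on the others. The share of all genes that separate so by plate prefix was not computed. Cluster 2 came mainly from Q plates and clusters 3 and 4 from the others.

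Kcnj12, a strong inward rectifier, was also lower in the oxytocin cluster. It reached at most 13.5 CPM in cluster 1 and had 32.1, 34.8, 42.1, 66.7 and 76.3 CPM in cluster 2, with no overlap between these. The log2 difference was -3.21 ± 0.86 (edgeR adjusted p = 0.0105), and -3.65 ± 0.67 when pooled (edgeR adjusted p = 0.0014). Kcnh1 and Kcnmb4 were lower in cluster 1 when pooled (log2 differences of -0.99 and -0.62, edgeR adjusted p = 0.0055 and 0.0148), though neither passed with equal weights. Kcns3, Kcnn2, Kcnab1 and Kcnh4 were called higher with equal weights alone, at mean levels in cluster 1 of 2.1 to 6.6 CPM, and Kcnj5 lower (-5.12 ± 1.44, edgeR adjusted p = 0.0221). Kcns3 had no UMI in 3 vasopressin clusters, and Kcnn2 and Kcnh4 had none in 2, so the sizes of their differences depend on the prior count. Kcnab1 kept its call in all 10 omissions of a plate (3.82 to 5.68), whereas the other 4 calls were each lost without some plate. Kcnj5 was not called without plate Q6, AL5, JM7 or JM8 (log2 differences over all 10 omissions from -5.74 to -4.48), Kcnh4 without Q8, AL5, JM6 or JM8 (3.80 to 4.18 over the 8 omissions that left it testable), Kcns3 without AL5, AL6, JM5, JM7 or JM8 (4.46 to 5.83) and Kcnn2 without AL5 (4.45 to 6.09).

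Each PVH cluster was then set against the other PVH clusters. The mean log level of those others was used, and it depends on the prior count where 1 of them is empty. A member with no UMI in some other cluster can therefore hardly be called lower in this form. No UMI was found in at least 1 PVH cluster for 36 members, so counts of higher and lower members are not on equal terms. Cluster 1 had 8 higher members (beside 11% of all genes) and 0 lower (beside 0.634%), and the median of all genes was itself shifted by 0.43 on the log2 scale. Pooled per plate, 2 of 46 members were higher in cluster 1 (beside 5.6% of genes), Kcnd3 and Kcnma1, and 11 were lower (beside 6.3%), among them Kcna2 (5.1 ± 6.2 against 35.9 ± 17.6 CPM), Kcnip4 (72.1 ± 32.5 against 154 ± 61.8 CPM) and Kcnk2 (13.8 ± 6.3 against 28.4 ± 8.4 CPM), each lower on 10 of 10 plates. Only Kcnd3 was called in both forms (log2 change 1.53 ± 0.40, edgeR adjusted p = 0.00458). The largest change with equal weights was that of Kcnab1, a beta subunit, at 3.48 ± 0.80 (edgeR adjusted p = 0.00135) and 0.95 when pooled (edgeR adjusted p = 0.542). Its highest cluster means were not in cluster 1 but in clusters 9 and 14 (22.0 and 9.7 CPM). In 2 parvocellular clusters it had no UMI, so the change with equal weights depends on the prior count.

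The vasopressin clusters shared calls of Kcnj5 and Kcnmb4. Kcnmb4 was not particular to them, with means of 181 CPM in cluster 2 and 177 CPM in parvocellular cluster 9. Cluster 2 had 3 higher members (beside 1.93% of genes), Kcnj5, Kcnj12 and Kcnmb4, and 1 lower (beside 0.321%), Kcnip1. Cluster 3 had 3 higher (beside 1.3%), Kcnj5, Kcns1 and Kcnmb4, and 1 lower (beside 0.306%), Kcnc1, which had 0, 0, 11.3, 13.7 and 18.5 CPM on its 5 plates. Cluster 4 had Kcnj5 and Kcnmb4 higher (beside 0.871%) and 0 lower (beside 0.176%). Pooled per plate, Kcnmb4 and Kcnip1 in cluster 2 and Kcnc1 in cluster 3 kept their calls, and Kcnj5 was higher on 5 of 5 plates in cluster 3 without passing (edgeR adjusted p = 0.133).

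Of the somatostatin clusters, cluster 7 was high in a silent Kv subunit and both 7 and 8 in an ELK channel. In cluster 7, 4 members were higher (beside 3.16% of genes) and 3 were lower (beside 1.87%). Kcnv1, which does not form channels alone and modifies Kv2 pores, had 19.8, 86.6 and 219 CPM (lowest, median and highest of 8 plates) in cluster 7, while the next highest cluster mean was 8.5 CPM, in cluster 14. The log2 change was 7.75 ± 0.92 (edgeR adjusted p = 3.78e-09) and 5.86 when pooled, higher on 8 of 8 plates (edgeR adjusted p = 4.68e-05). Kcnv1 was detected in 60.0% of cluster 7 cells and 11.9% of cluster 8 cells. Kcnh8, an ELK pore, had 0, 69.1 and 161 CPM in cluster 7 (log2 change 6.55 ± 0.89, edgeR adjusted p = 1.76e-07) and 40.8, 57.7, 72.0 and 116 CPM on the 4 plates of cluster 8 (5.64 ± 1.13, edgeR adjusted p = 0.00317). Cluster 8 had this 1 higher member (beside 0.711% of genes) and 0 lower (beside 0.0229%), and pooled it was higher on 4 of 4 plates without passing (edgeR adjusted p = 0.251). Kcns3 and Kcng2, also modulatory subunits, were higher in cluster 7 with equal weights.

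Cluster 7 had in turn little of 3 common members. Kcnip4 had 0, 1.8 and 54.5 CPM on its 8 plates (log2 change -3.95 ± 0.90, edgeR adjusted p = 0.00266). Kcna2 and Kcna4, both Kv1 pores, had 3 UMIs each there and were at 0 on 7 of 8 plates (log2 changes -4.91 ± 1.28 and -4.16 ± 1.33, edgeR adjusted p = 0.00931 and 0.049). All 3 were lower on 8 of 8 plates when pooled and passed there.

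Cluster 13, high in Gad2, stood apart in Kcnmb4. No UMI of it was counted on its 3 plates (10 cells in the sums), beside 83.0 ± 25.4 CPM (SD, n = 3) in the other clusters of those plates. A floor of 3 counts over the cluster makes the level at least 23.4-fold lower (edgeR adjusted p = 0.00211). Kcnip4 had 1 UMI there, beside 147 ± 19.9 CPM in the others (edgeR adjusted p = 0.0253). These 2 were its lower members (beside 0.183% of genes), with 0 higher (beside 0.336%). Kcnc2, at 27.2, 177 and 180 CPM, had its highest cluster mean here.

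Cluster 14, which expressed Penk, and cluster 15 shared Kcna2. It had 4.9, 84.4 and 250 CPM (lowest, median and highest of 8 plates) in cluster 14 and 0, 88.9 and 175 CPM in cluster 15, and the next highest cluster mean was 30.1 CPM. The log2 changes were 3.65 ± 0.69 and 3.73 ± 0.69 (edgeR adjusted p = 0.000116 and 0.000171), and pooled it passed in cluster 14 (edgeR adjusted p = 0.0356) and not in cluster 15 (edgeR adjusted p = 0.39). Kcna2 was detected in 70.2% and 51.7% of these cells. Cluster 14 had 6 higher members (beside 4.74% of genes), with Kcna1, its usual Kv1 partner, and Kcnab3 among them, and 1 lower (beside 1.28%), Kcnf1, at 0 on 7 of 8 plates (log2 change -5.19 ± 1.27, edgeR adjusted p = 0.00445). Kcnab3, the largest of the 6, was at 0 on 4 of 8 plates and reached 50.5 CPM. Kcnv1 was also called higher there with equal weights (3.70) and had a pooled change of -2.83 that did not pass. Cluster 15 had 4 higher (beside 2.88%), Kcns3, Kcnj3, Kcnn2 and Kcna2, and 0 lower (beside 0.81%), and the first 3 were at 0 on 3 or 4 of its 8 plates.

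Cluster 10, which expressed Crh, had 6 higher members (beside 2.74% of genes) and 0 lower (beside 1.05%). Kcnip1 had its highest levels there, at 197, 317 and 417 CPM (lowest, median and highest of 7 plates), with a log2 change of 1.51 ± 0.27 (edgeR adjusted p = 7.8e-05) and a pooled call (edgeR adjusted p = 0.0162). Kcnj12 (27.9 to 165 CPM) and Kcnd2 (78.3 to 221 CPM) were higher on 7 of 7 plates without passing when pooled. Kcnj10, an inward rectifier best known from glia, was at 0 on 5 of 7 plates and came to 72 UMIs. In cluster 9, which expressed Trh, Kcnmb4 was higher (beside 1.83%), at 53.3 to 353 CPM on 4 plates, and Kcnh1 lower (beside 0.994%), at 0 to 12.8 CPM, and neither passed when pooled.

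In cluster 12, with an Oxt level of 12960 ± 5093 CPM (SD, n = 6 plates), 0 members were higher (beside 1.95% of genes) and 0 lower (beside 0.405%) in the edgeR test. At an unadjusted p under 0.05 there were 5 higher and 2 lower, DESeq2 called 2 and 3, and pooled edgeR called 2 (beside 0.651% of genes) and 0 (beside 1.26%). The pooled calls were Kcnip4 (284 ± 60.0 against 145 ± 24.8 CPM) and Kcnk1, a leak channel (156 ± 39.0 against 72.5 ± 10.99 CPM), both higher on 6 of 6 plates. Clusters 1, 4, 8, 10 and 15 also had counts of 0 lower members above. At an unadjusted p under 0.05 these were 0, 2, 1, 1 and 1, and by DESeq2 2, 6, 0, 3 and 5. When pooled they were 11, 0, 0, 2 and 1, beside 6.3%, 0.427%, 0.0408%, 3.55% and 1.81% of genes. The count of 0 higher members in cluster 13 was, in the same order, 5, 2 and 0, the last beside 0.262% of genes. No share of all genes was set beside the unadjusted and DESeq2 counts, so they are no result about the members.

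**Figure D4:**
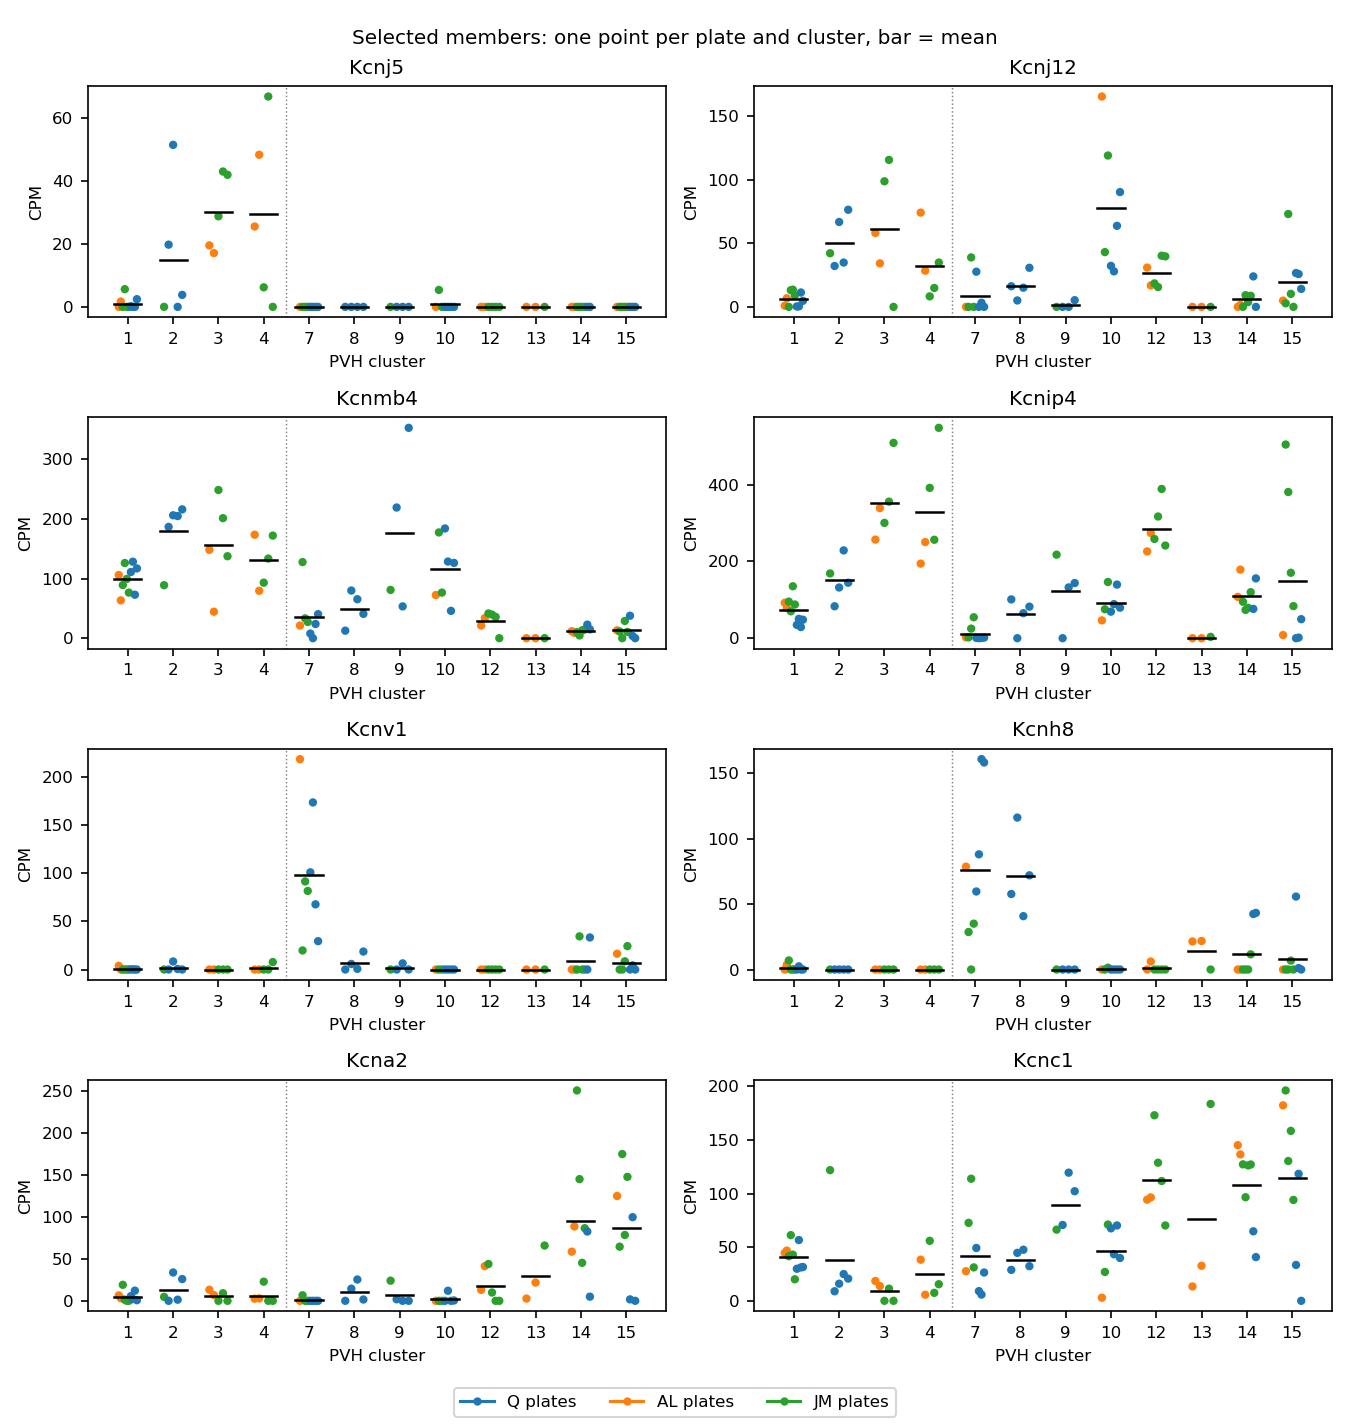
Level in CPM of 8 members in each PVH cluster, 1 point per plate coloured by plate prefix, with the mean as a bar and a dotted line between magnocellular and parvocellular clusters. Kcnj5 rises above 10 CPM only in clusters 2 to 4, Kcnv1 above 40 CPM only in cluster 7, and Kcnmb4 is at 0 on all 3 plates of cluster 13.

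Subunits known to assemble were not always high in the same clusters. Over the 12 cluster means, which share libraries and depth, log2 levels of Kcnd2 and Kcnip4 had Pearson's r = 0.87 (Spearman's rho = 0.76), Kcnd2 and Kcnip1 -0.20 (-0.17), Kcnma1 and Kcnmb4 0.31 (0.67), Kcna1 and Kcna2 0.49 (0.26) and Kcnj3 and Kcnj6 0.03 (-0.05). They are given as descriptions of 12 points. Of 25 listed partner proteins of these channels, 23 were tested between magnocellular and parvocellular clusters, and 6 were higher (beside 7.9% of all genes) and 2 were lower (beside 2.68%). The higher ones included Adam23 (log2 change 2.02) and Lgi1 (1.57, although its mean of 28.2 CPM in magnocellular and 28.7 CPM in parvocellular sums differed by less than the spread between plates), of the synaptic LGI1 complex that includes Kv1, and Cntnap2 (0.99), which clusters Kv1 channels along axons; the scaffold Dlg1 was lower (-1.42).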

How the data were processed

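Single PVH cells were hand-picked into 10 plates and sequenced with a 3′-tagged, UMI-based protocol (Smart-SCRB). Per the submitters' processing notes, reads were trimmed with Trimmomatic 0.36 and aligned with STAR 2.5.3a to GRCm38.p5. The deposited counts are raw UMIs per gene and cell, and the authors also deposited the cell table with the cluster of each cell, which was used as given. ERCC spike-in counts were not used.

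Counts of at least 3 cells of a cluster on a plate were summed (73 sums of 12 PVH clusters, 636 cells), filtered with edgeR's filterByExpr and fitted in edgeR 4.0.16 (R 4.3.3; TMM, quasi-likelihood, cluster and plate as terms), with Benjamini-Hochberg adjustment over all genes tested. The dispersion trend was estimated on every 8th gene by abundance. Levels are CPM of total UMIs per sum, and levels of different genes were not tested against each other. DESeq2 1.42.0 and the other alternatives are given in the closing section. Intervals are exact binomial at 95% and cover counting error only. The fits were tested on simulated data.

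The members, lists and tests were chosen with earlier results of these data known. The clusters came from the same counts, so an adjusted p is no independent evidence that a cluster exists. Named members were, by contrast, the 10 largest changes per direction between magnocellular and parvocellular clusters, the 5 largest per direction between cluster 1 and clusters 2 to 4, the largest higher member of each cluster, the 8 with the largest SD over clusters, a set of textbook neuronal channels, and those at the limit of 50 UMIs. Further members named beside them were chosen after their values were seen. Values of some members are not reported here.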

Additional observations from a re-analysis of the deposited data

Results flagged for a closer look

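For 12 members called between magnocellular and parvocellular clusters, the difference of log2(CPM + 1) was compared over 10 plates, and 1 plate stood apart, where chance alone sets apart about 1 in 20 such groups. For Kcnc2 the AL6 plate had a difference of 0.40, higher in magnocellular sums, while the other 9 plates lay between -2.59 and -1.47.

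The wells outside the deposited cell table, which entered no comparison, held 7534 UMIs of the members, beside 172804 in the retained cells. Of the 64 members, 61 had at least 1 UMI there.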

How the results depend on the processing

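The count of members differing among PVH clusters (27 of 57) was 16 with DESeq2, 14 with sums of at least 5 cells, 17 with cells thinned to equal depth and 15 on AL and JM plates alone, and 20 to 24 with 1 plate left out. The 12 members between magnocellular and parvocellular clusters became 25 with DESeq2 (13 higher, 12 lower) and 4 on Q plates alone, and 12 to 14 with 1 plate left out; pooled sums per plate gave 15, but with 5 higher and 10 lower in place of 7 and 5, and an exact sign-flip test over plates gave 8 (1024 flips, smallest possible p 0.00195). The 7 members between the oxytocin and vasopressin clusters became 11 without a filter, 17 with DESeq2, 3 with thinned cells and 4 on AL and JM plates alone, and 4 to 8 with 1 plate left out, the 4 without plate JM8. The 47 calls of single clusters became 146 with DESeq2, 78 without the plate block, 22 with sums of at least 5 cells and 26 with thinned cells. Pooled sums gave 39, with 12 higher and 27 lower in place of 38 and 9. With equal weights, a member with no UMI in some other cluster can hardly be called lower. No share of all genes was set beside most of these counts, so a shift may not be particular to the members. The causes of these shifts were not tested. Of 515 values of the members named by the rule under alternatives, 436 kept direction and call, 79 kept direction and lost the call, and 0 changed sign; Kcnv1 in cluster 14, outside these, went from 3.70 to -2.83 when pooled, without passing there. Members detected in over 40% of the cells of a cluster numbered 24 to 30 over all settings. Leaving out each plate for the single-cluster tests was not run. Members with few UMIs, above all in clusters 13 (10 cells in sums) and 4 (20 cells), are limited by depth, and a level of 0 there was not detectable rather than absent.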
